A study of Homo sapiens with 10 samples.

Results

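Metallothioneins and the genes of zinc sensing and zinc export were followed in NB4, a human acute promyelocytic leukaemia line with the PML-RARA fusion. The set holds 10 genes chosen by name, the metallothioneins MT2A, MT1X, MT1E, MT1F, MT1G, MT1M, MT1A and MT1H, the zinc sensor MTF1 and the zinc exporter SLC30A1, of 21941 genes obtained by summing transcripts. Of the 10, 8 had a transcript in the NB4 table and 7 reached the level needed for testing. MT1A was listed at 0 in all 4 libraries, and expression of MT1M and MT1H was not analysed here. RNA was sequenced from 2 NB4 libraries treated with JOA at 1 µM for 48 hours and from 2 NB4 libraries given a control treatment for 48 hours. I13 appears in the source label of the treated NB4 libraries, whereas their title, agent and treatment protocol give JOA. JOA is known here only by that name. Kasumi-1, a myeloid leukaemia line with the RUNX1-RUNX1T1 fusion, had 3 JOA and 3 control libraries under the same dose and time, and 1 of the 10 genes, MTF1, was matched in its table. Only 37.5% of the rows in the Kasumi-1 table could be given a gene symbol, so other members may stand among its unmatched rows. NB4 and Kasumi-1 are established cell lines, and no label says whether the libraries of a group are separate cultures. The p-values therefore reflect the spread among these libraries alone, and that spread may be technical.

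Metallothioneins are small proteins in which cysteines bind zinc, copper and cadmium, and they buffer the zinc that cells hold in reserve. MTF1 is a zinc finger transcription factor that binds metal response elements in promoters when free zinc rises, and metallothionein genes and the plasma membrane exporter SLC30A1 are its best known targets. In myeloid cells metallothionein RNA is also known to respond to glucocorticoids, cytokines and oxidative stress.

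NB4 values are TPM, a level per transcript length scaled to a fixed library total, with each library summing to between 999679 and 999758, so depth is unknown. Both libraries of a group correlated at 0.986 across genes on the log2 scale. The promyelocyte markers MPO, PRTN3, AZU1 and CTSG were high, while ELANE stood at 0.409 and 0.0786 TPM in JOA libraries and 1.00 and 1.59 TPM in control libraries. The 5 promyelocyte markers summed to 6301 and 4933 TPM in JOA libraries and to 8649 and 8519 TPM in control libraries. Of the markers of other cell types, 6 epithelial or fibroblast genes summed to 53.2 and 54.9 TPM in JOA libraries and 39.3 and 38.3 TPM in control libraries, mostly KRT18, EPCAM and KRT8, with KRT19 at 0. The 4 T cell markers summed to 33.4 and 49.1 TPM in JOA libraries and to at most 30.5 TPM in control libraries, nearly all of it CD3D, with CD3E and CD2 at most 0.0959 TPM. B cell markers summed to 7.02 and 6.22 TPM in JOA libraries and 5.84 and 5.97 TPM in control libraries. Megakaryocyte markers summed to 4.10 and 3.75 TPM in JOA libraries and 3.67 and 2.80 TPM in control libraries. The epithelial or fibroblast, T cell, B cell and megakaryocyte sums were each higher in both JOA libraries than in either control library. Of all tested genes, 32.5% had both JOA libraries above both controls. Erythroid markers summed to at most 0.637 TPM in any library. Mitochondrially encoded transcripts took 11.2% and 13.1% of TPM in JOA libraries, against 14.6% and 16.4% in control libraries.

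Promoters are shown from RefSeq on GRCh38.p14, as the 250 bases before the RefSeq start site. They are those of the most abundant metallothionein, of MT1X, and of SLC30A1, the target that had nearly equal means in the groups. No window was at hand for MT1G. The RefSeq starts of these genes differ from the gene coordinates printed with the levels below. The MT2A window lies inside those coordinates, the MT1X window lies partly inside them, and the SLC30A1 window does not adjoin them. Capitals mark each match to the metal response element core, searched as TGCACNC and TGCGCNC on both strands, and overlapping matches were counted once each.
MT2A, chr16:56608334-56608583, plus strand: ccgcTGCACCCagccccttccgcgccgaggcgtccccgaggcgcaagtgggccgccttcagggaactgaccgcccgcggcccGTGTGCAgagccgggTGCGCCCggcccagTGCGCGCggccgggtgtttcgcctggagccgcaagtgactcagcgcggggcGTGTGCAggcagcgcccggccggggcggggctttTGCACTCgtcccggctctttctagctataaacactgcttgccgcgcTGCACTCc
MT1X, chr16:56682220-56682469, plus strand: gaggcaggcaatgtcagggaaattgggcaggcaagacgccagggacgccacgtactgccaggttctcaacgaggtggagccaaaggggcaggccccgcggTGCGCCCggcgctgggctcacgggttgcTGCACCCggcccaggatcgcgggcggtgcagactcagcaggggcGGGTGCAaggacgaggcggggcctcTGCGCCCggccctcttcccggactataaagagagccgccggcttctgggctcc
SLC30A1, chr1:211579162-211579411, minus strand: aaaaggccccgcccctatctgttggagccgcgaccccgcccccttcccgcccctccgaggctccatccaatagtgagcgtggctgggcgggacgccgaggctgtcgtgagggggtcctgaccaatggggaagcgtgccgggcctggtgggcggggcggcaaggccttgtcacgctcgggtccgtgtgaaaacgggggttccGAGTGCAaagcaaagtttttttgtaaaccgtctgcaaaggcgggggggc
Promoter windows were at hand for 5 of the 10 genes, MT2A, MT1X, MT1H, SLC30A1 and MTF1. Counted over 300 bases, 250 before and 50 after the start, the MT2A and MT1H windows held 8 matches each, MT1X held 4, SLC30A1 held 2 and MTF1 held 0. Searched with the same pair of patterns, 29.6% of 35116 promoter windows of that length held at least 1 match, 8.60% at least 2, 0.601% at least 4 and 0.0199% at least 8. The antioxidant response element core, searched as TGACNNNGC on both strands, matched once in each of the MT2A, MT1X and SLC30A1 windows and in 13.3% of all windows. A match describes letters in a window and not a bound site.

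**Figure D1:**
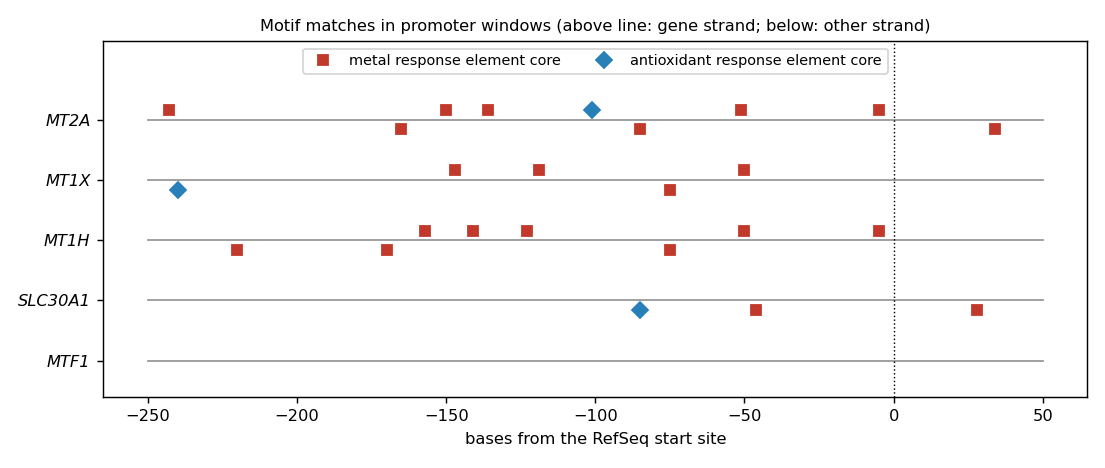
Position of motif matches, in bases from the RefSeq start site, in the 5 promoter windows, with squares for the metal response element core and diamonds for the antioxidant response element core. Matches to the metal response element core number 8 in MT2A, 4 in MT1X, 8 in MT1H, 2 in SLC30A1 and 0 in MTF1.

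MT2A and MT1G, the first and second most abundant metallothioneins in control NB4 cells, had lower levels with JOA, at 60.6% and 59.5% of their control means. MT1F and MT1X were also lower, at 69.5% and 74.9%, while MT1E, MTF1 and SLC30A1 had overlapping groups. None of the 7 genes passed limma's test with Benjamini-Hochberg adjustment over 12932 genes (lowest adjusted p = 0.163, for MT2A and MT1G), and 4 of the 7 were at an unadjusted p under 0.05, all of them lower with JOA. Over all tested genes the adjusted test called 0.00773%, which is 1 gene, and 2.44% were lower and 8.21% higher with JOA at an unadjusted p under 0.05, which is 315 and 1062 genes. With median-ratio scaling those were 588 lower and 594 higher genes, and the same 4 members were lower. The count of 4 was 2 when the second control library or the second JOA library was left out. In bulk RNA, fewer cells of a type and less RNA per cell cannot be told apart.

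**Figure D2:**
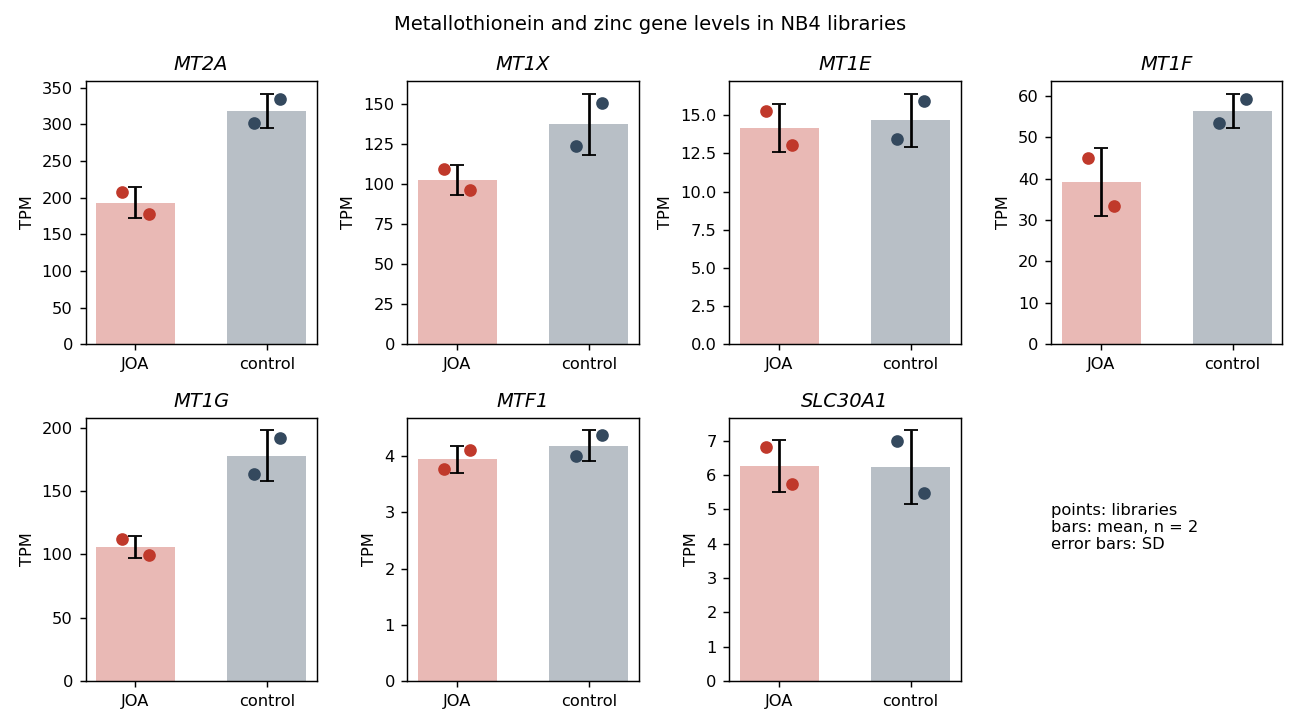
Level in TPM of the 7 tested genes in each NB4 library (points), with the group mean as a bar and the SD as an error bar, for JOA (left) and control (right), 2 libraries each. JOA points lie below both control points in MT2A, MT1X, MT1F and MT1G, and the groups overlap in MT1E, MTF1 and SLC30A1.

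MT2A (chromosome 16, 56608199 to 56609497, plus strand, GRCh38), the main metallothionein of most human cells, had 208 and 178 TPM in JOA libraries, against 301 and 335 TPM in control libraries. Both JOA values lay below both control values. The means were 193 ± 21.0 TPM with JOA and 318 ± 23.7 TPM in control (SD, n = 2 each). The log2 change was -0.72 (SE 0.11, 95% interval -0.99 to -0.45, unadjusted p = 0.00029, limma adjusted p = 0.163), on the log2(TPM + 1) scale used for every fold change here, which understates the change of low genes. Of MT2A's RNA, 99.1% was assigned to MT2A-201, the protein-coding transcript, and the retained intron transcript MT2A-203 held 0.738 and 1.10 TPM with JOA and 0.737 and 1.87 TPM in control.

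MT1G (chromosome 16, 56666731 to 56668065, minus strand) had 112 and 99.6 TPM in JOA libraries and 164 and 192 TPM in control libraries. Its groups did not overlap, and its smallest gap between groups, 0.54 on the log2 scale, exceeded the gap within either group, 0.17 in JOA and 0.23 in control. MT2A likewise had a smallest gap of 0.53 between groups, against 0.22 within JOA and 0.15 within control. The log2 change of MT1G was -0.74 (SE 0.12, 95% interval -1.02 to -0.46, unadjusted p = 0.00032, limma adjusted p = 0.163). MT1G is the 1 member whose RNA was split between a pair of abundant protein-coding transcripts, MT1G-201 with 78.8% and MT1G-202 with 20.9% over all libraries. MT1G-201 had 87.3 and 83.3 TPM with JOA and 129 and 148 TPM in control, and MT1G-202 had 25.1 and 16.3 TPM with JOA and 33.1 and 44.4 TPM in control. In both transcripts each JOA value was below each control value.

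MT1X (chromosome 16, 56682424 to 56684196, plus strand) had 109 and 96.2 TPM with JOA, against 124 and 151 TPM in control. The groups did not overlap, but the smallest gap between them, 0.18 on the log2 scale, was below the gap between the control libraries, 0.28. Its log2 change was -0.41 (SE 0.13, 95% interval -0.71 to -0.11, unadjusted p = 0.014, limma adjusted p = 0.352). MT1F (chromosome 16, 56657694 to 56660698, plus strand) had 45.0 and 33.5 TPM with JOA and 53.5 and 59.4 TPM in control. Its log2 change was -0.53 (SE 0.16, 95% interval -0.89 to -0.16, unadjusted p = 0.0106, limma adjusted p = 0.327). Without the second JOA library it was -0.32, and without the second control library MT1X was at -0.27.

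MT1E (chromosome 16, 56625475 to 56627112, plus strand) had 15.3 and 13.1 TPM with JOA and 13.4 and 15.9 TPM in control, and the groups overlapped. Its log2 change was -0.05 with a 95% interval of -0.43 to 0.33 (limma adjusted p = 0.940), so a decrease of the size seen in MT2A lay outside the interval and one of the size seen in MT1X lay within it. Its sign turned when the second JOA library was left out (0.06) or the second control library (0.07). Within a library, the MT1E level was 0.0736 and 0.0734 of the MT2A level with JOA and 0.0446 and 0.0475 of it in control. These ratios did not overlap, and the exact two-sided permutation test gave p = 0.333, the smallest it can give with 2 libraries against 2. The ratio of MT1X to MT2A was 0.527 and 0.540 with JOA and 0.411 and 0.451 in control, also without overlap. That of MT1F to MT2A was 0.216 and 0.188 with JOA and 0.177 in each control library, again without overlap. The ratio of MT1G to MT2A was 0.541 and 0.559 with JOA and 0.544 and 0.574 in control, with overlapping groups. Only the MT1E ratio was tested.

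All 6 metallothioneins in the table together summed to 490 and 420 TPM with JOA and to 656 and 754 TPM in control. Those sums are 0.0490% and 0.0420% of the library's TPM with JOA and 0.0656% and 0.0754% in control. MT2A gave 42.4% of the sum in each JOA library and 45.9% and 44.4% in the control libraries, MT1G between 22.9% and 25.5% in any library, and MT1X 22.3% and 22.9% with JOA and 18.9% and 20.0% in control. MT1F gave 9.18% and 7.96% with JOA and 8.15% and 7.88% in control. By level per length, the order in control was MT2A, MT1G, MT1X, MT1F and MT1E, and with JOA the MT1G and MT1X levels overlapped.

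Of the 5 tested metallothioneins, all had a negative log2 change, with a median of -0.53, where all tested genes had a median of 0.085 and 8563 of 12932 were positive, or 6334 with median-ratio scaling. In 4 of the 5, both JOA libraries lay below both controls, a pattern that 11% of tested genes showed, while 32.5% of tested genes had both JOA libraries above both controls. MT1G, MT2A, MT1F and MT1X stood at percentiles 0.924, 0.947, 1.79 and 3.08 of all tested log2 changes, and MT1E at percentile 26.0. The genes were chosen with earlier results of these data in view, so these counts are a description.

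**Figure D3:**
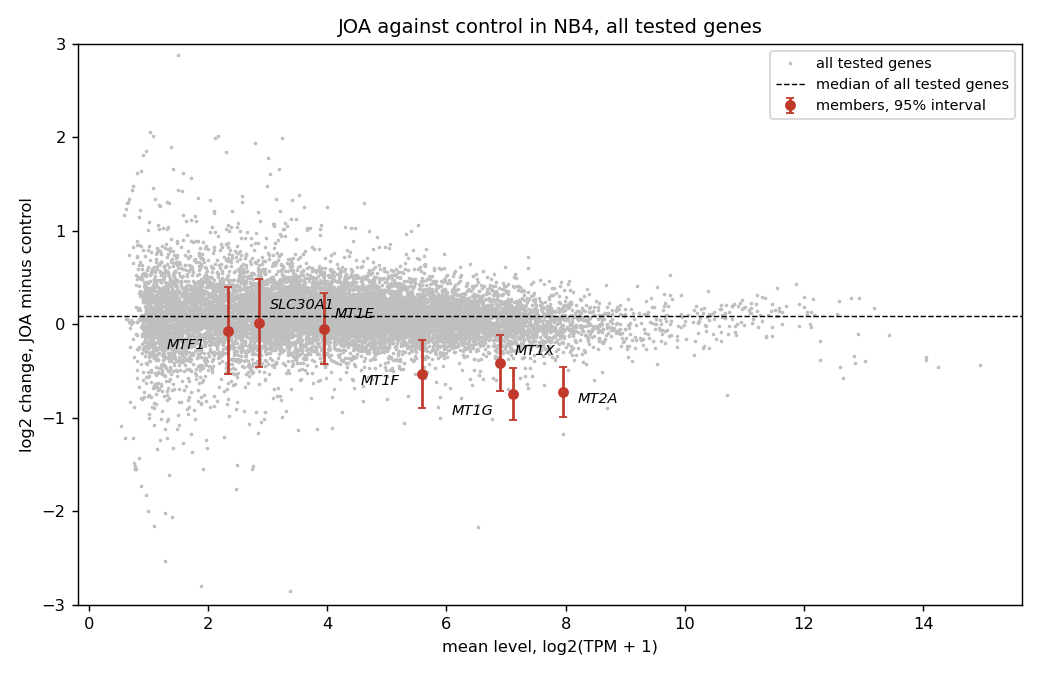
Log2 change with JOA (vertical) against mean level on the log2(TPM + 1) scale (horizontal) for all 12932 tested NB4 genes (grey) and the 7 members (red, with 95% intervals). MT1G, MT2A, MT1F and MT1X lie at -0.74 to -0.41, below the dashed median of 0.085.

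The coding sequences of these paralogs are close to each other, which limits how far reads can be assigned among them. MT1E and MT2A, the tested metallothionein with the smallest change and the most abundant, are shown from GENCODE 29 transcripts (chromosome 16, GRCh38) with the 14 bases at which they differ in capitals.
MT1E: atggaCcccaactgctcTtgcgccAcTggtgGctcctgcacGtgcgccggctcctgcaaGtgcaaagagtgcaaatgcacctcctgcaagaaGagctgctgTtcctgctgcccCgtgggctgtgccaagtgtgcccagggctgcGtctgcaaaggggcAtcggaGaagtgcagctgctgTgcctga
MT2A: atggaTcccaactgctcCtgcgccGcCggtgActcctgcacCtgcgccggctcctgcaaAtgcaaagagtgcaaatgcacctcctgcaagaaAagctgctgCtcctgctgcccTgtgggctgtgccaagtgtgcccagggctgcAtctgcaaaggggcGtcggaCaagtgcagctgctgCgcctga
Each coding sequence has 186 bases, of which 172 are identical (92.5%), and each encodes 61 residues with 20 cysteine codons. Over all pairs of the 5 tested metallothioneins, identity ranged from 88.7% for MT1F and MT1X to 94.2% for MT1G and MT2A. The longest exact stretch shared by any pair had 96 bases, from coding base 64 of MT1G and coding base 61 of MT1X, and is shown with its 12 cysteine codons in capitals.
MT1G and MT1X: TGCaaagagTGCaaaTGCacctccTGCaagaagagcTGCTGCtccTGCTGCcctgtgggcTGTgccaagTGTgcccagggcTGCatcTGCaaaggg
Windows of 50 bases along each leading transcript, including its untranslated parts, were sought in the transcripts of genes on either genomic strand. The share found in no other GENCODE gene was 96.4% for MT1F, 95.1% for MT2A, 94.7% for MT1E, 79.8% for MT1G and 54.9% for MT1X. MT1X shares its windows mainly with AC026461.1, an overlapping noncoding gene on the same strand, and with MT1G. The read length and the way shared reads were assigned are not given in the sources used here, so the split between MT1X and MT1G is the least certain of the levels above.

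MTF1 (chromosome 1, 37809567 to 37859620, minus strand), the zinc sensor, had 3.78 and 4.12 TPM with JOA, against 4.00 and 4.38 TPM in control NB4 libraries. The groups overlapped, and the log2 change was -0.07 (95% interval -0.53 to 0.39, limma adjusted p = 0.920). With protein-coding transcripts only the log2 change was 0.02, since the processed transcript MTF1-202, listed at 0.594 TPM in the second control library and at 0 in the others, then drops out. SLC30A1 (chromosome 1, 211571568 to 211578742, minus strand), which exports zinc across the plasma membrane, had 6.80 and 5.72 TPM with JOA and 6.98 and 5.46 TPM in control. Both JOA values lay between the controls, with means of 6.26 ± 0.762 TPM with JOA and 6.22 ± 1.08 TPM in control (SD, n = 2 each), and the log2 change was 0.01 (95% interval -0.46 to 0.48, limma adjusted p = 0.991). With median-ratio scaling it was -0.07, so its sign is not settled. A decrease of 0.72, as in MT2A, lay outside the interval of SLC30A1 and of MTF1. The difference between members was not tested.

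Metallothionein genes form a cluster of 119 kb on chromosome 16, and 16 of the family's listed genes are annotated there. Of these, 6 were tested, the 5 members and MT1L, a transcribed pseudogene, which had 5.96 and 3.21 TPM with JOA and 4.38 and 7.39 TPM in control (log2 change -0.31, limma adjusted p = 0.741). MT1L lies between MT2A and MT1E, and MT1E lies 17.3 kb from the start of MT2A, so the member with the smallest change sits inside the cluster. Within 500 kb on either side, 9 other genes were tested, of which 4 had negative and 5 positive log2 changes with a median of 0.02. None of the 9 reached an unadjusted p under 0.05 in limma. The nearest tested neighbours were NUP93, a nuclear pore protein, with 78.9 TPM on average with JOA and 79.4 TPM in control (log2 change -0.01), and BBS2, a ciliary protein, with 10.4 TPM with JOA and 11.1 TPM in control (log2 change -0.07).

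**Figure D4:**
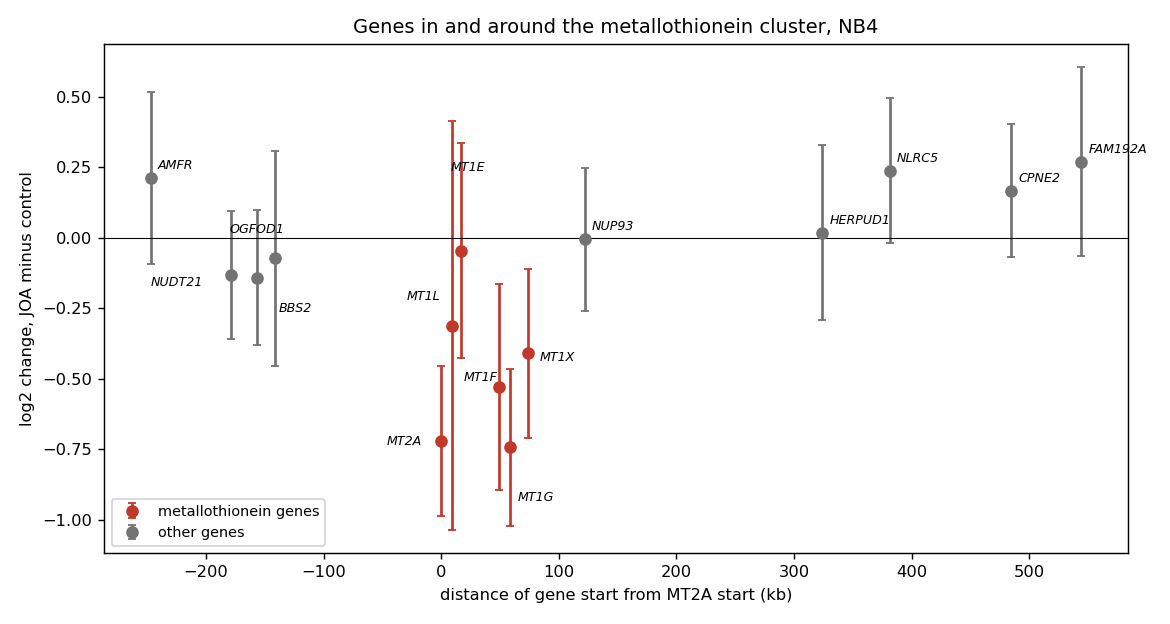
Log2 change with JOA and its 95% interval (vertical) against the distance of each gene's start from the MT2A start in kb (horizontal) for the tested NB4 genes within 500 kb of the metallothionein cluster. Metallothionein genes (red) lie between -0.74 and -0.05, and the 9 other genes (grey) between -0.14 and 0.27.

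Of the zinc transporters, 0 passed limma's adjusted test in NB4, and 2 importers and 0 exporters were at an unadjusted p under 0.05. Among all 12932 tested genes, 2.44% were lower and 8.21% higher at that threshold. Positive log2 changes were found in 8563 of the 12932, and 32.5% had both JOA libraries above both controls. Of 14 importers of the SLC39 family, which bring zinc into the cytosol, 11 were tested, 8 had positive and 3 negative log2 changes, and the median was 0.05. SLC39A10, an importer that Mtf1 is known to repress in mice, had 36.0 and 32.0 TPM with JOA and 28.2 and 24.1 TPM in control, with groups that did not overlap (log2 change 0.37, unadjusted p = 0.0295, limma adjusted p = 0.419). SLC39A13, an importer of the secretory pathway, had 20.1 and 16.7 TPM with JOA and 11.9 and 14.9 TPM in control, again without overlap (log2 change 0.43, limma adjusted p = 0.444). Of 9 other SLC30 exporters 4 were tested, with a median of 0.03, and SLC30A6, a Golgi zinc transporter, had 15.3 and 16.8 TPM with JOA and 13.6 and 13.5 TPM in control (log2 change 0.23, limma adjusted p = 0.610). SLC30A5, which loads zinc into the early secretory pathway, averaged 43.8 TPM with JOA and 41.7 TPM in control.

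Genes of copper handling had 7 of 12 negative log2 changes with a median of -0.11, and 0 passed in limma, with 1 at an unadjusted p under 0.05. That gene was ATOX1, a copper chaperone, with 108 and 93.9 TPM with JOA and 115 and 130 TPM in control (log2 change -0.28, limma adjusted p = 0.470). ATP7B, a copper-exporting ATPase, averaged 5.43 ± 1.27 TPM with JOA and 4.06 ± 1.69 TPM in control, with overlapping libraries. In iron handling, 10 of 15 log2 changes were positive (median 0.05) and 0 passed in limma, with 4 at an unadjusted p under 0.05 (FBXL5, TFRC, PCBP2 and HMOX1). Over all tested genes, 8563 of 12932 log2 changes were positive, with 2.44% lower and 8.21% higher at an unadjusted p under 0.05. FBXL5, which degrades the iron regulatory protein IREB2, averaged 34.8 ± 0.853 TPM with JOA and 24.8 ± 3.11 TPM in control, with groups that did not overlap (SD, n = 2 each, log2 change 0.48, limma adjusted p = 0.304). TFRC, the transferrin receptor, had 118 and 117 TPM with JOA and 141 and 148 TPM in control (log2 change -0.30, limma adjusted p = 0.361).

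Lists of other genes linked to responses to metals, oxidants or glucocorticoids had median log2 changes close to that of all genes. Of all 12932 tested genes 8563 were positive, and 2.44% were lower and 8.21% higher at an unadjusted p under 0.05. Among 12 tested genes of metal and oxidative stress, 10 were positive with a median of 0.08, and 0 passed in limma, with 2 at an unadjusted p under 0.05. These were HMOX1, which breaks down haem, with 1.60 and 2.14 TPM with JOA and 0.381 and 1.03 TPM in control, and NQO1, a quinone reductase, with 54.4 ± 6.33 TPM with JOA and 36.9 ± 13.2 TPM in control (SD, n = 2 each). Neither had overlapping groups, and both had limma adjusted p = 0.428. On its control libraries alone HMOX1 would not have reached the level needed for testing. Its higher level with JOA and its place in this count and in that of iron handling were thus partly set by the filter. BAG3, a cochaperone, averaged 11.6 ± 1.10 TPM with JOA and 9.46 ± 4.47 TPM in control. Among 10 tested glucocorticoid-responsive genes the median was 0.10, 7 were positive, and 0 passed in limma, with 1 at an unadjusted p under 0.05. That gene was ZBTB16, a transcriptional repressor, with 3.18 and 2.21 TPM with JOA and 7.27 and 4.26 TPM in control (log2 change -0.85, limma adjusted p = 0.367), while the receptor gene NR3C1 averaged 16.8 ± 0.652 TPM with JOA and 13.7 ± 1.51 TPM in control. Of 7 listed genes of myeloid proteins 3 were tested, S100A9, MPO and ELANE, with 0 passing in limma and all 3 at an unadjusted p under 0.05. ELANE reached the level needed for testing only through its control libraries. Its lower level with JOA and its place in this count were thus partly set by the filter. S100A9, a calcium- and zinc-binding protein of neutrophils and monocytes, had 3.20 and 4.25 TPM with JOA and 1.53 and 2.23 TPM in control, higher in both JOA libraries (log2 change 0.71, limma adjusted p = 0.388), while MPO and ELANE were lower. MPO, the haem enzyme of granules, had 5886 and 4679 TPM with JOA and 7983 and 7693 TPM in control (log2 change -0.58, limma adjusted p = 0.275). The promyelocyte marker sum and the mitochondrial share were lower with JOA, as were MT2A, MT1G, MT1F and MT1X. The T cell, B cell, megakaryocyte and epithelial or fibroblast marker sums were higher, though the T cell marker CD8A was lower. The part of these marker and mitochondrial shifts in the result was not tested. With mitochondrially encoded genes left out and the rest rescaled, MT2A was at -0.78 and MT1G at -0.80.

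**Figure D5:**
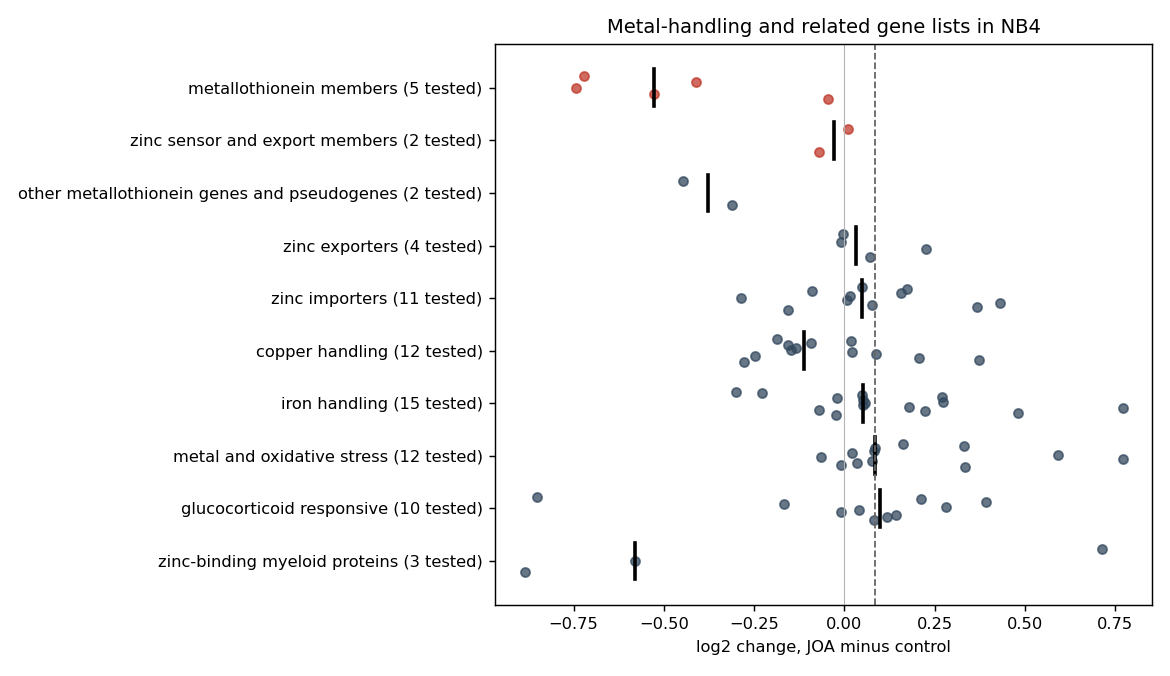
Log2 change with JOA of each tested NB4 gene (points) by gene list, with the list's median as a black bar and the median of all tested genes, 0.085, as a dashed line. Metallothionein members (red, top) have a median of -0.53, and the zinc importers and the metal and oxidative stress genes have medians of 0.05 and 0.08. The list labelled zinc-binding myeloid proteins is not limited to zinc-binding proteins.

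Genes whose levels over the 4 NB4 libraries were most like those of MT2A were named by the smallest root mean square difference in log2 deviation from the control mean, among 10021 tested genes outside the lists. They were CALR, GPT2, CES1, PRADC1 and NECTIN1, at 0.0572 to 0.0949. CALR, the calcium-binding chaperone calreticulin, had 1376 and 1197 TPM with JOA and 1947 and 2398 TPM in control (log2 change -0.75, limma adjusted p = 0.171). CES1, a carboxylesterase, had 26.6 and 20.0 TPM with JOA and 40.0 and 41.7 TPM in control. Like the metallothionein cluster, CES1 and GPT2 are on chromosome 16. Those most like MT1X were SRM, B9D1, TREM1, HSPE1 and TMEM208, at 0.0163 to 0.0314, of which TMEM208 is on chromosome 16. SRM, spermidine synthase, had 161 and 145 TPM with JOA and 182 and 222 TPM in control. With 4 libraries, such likeness is a description of those libraries.

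In Kasumi-1, MTF1 had 6.21, 5.64 and 6.33 FPKM with JOA and 5.97, 5.55 and 5.90 FPKM in control, where FPKM scales fragments by transcript length and library size. The groups overlapped, and the log2 change was 0.05 (SE 0.07, 95% interval -0.12 to 0.22, limma adjusted p = 0.756). Kasumi-1 had 0% of rows called, 0 of 12013 with 1972 at an unadjusted p under 0.05, and with same-numbered libraries as pairs 8.36% were called and MTF1 was not (limma adjusted p = 0.516). With 1 variance shared over both lines, the NB4 comparison called 2.17% of 7111 genes, and MTF1, the 1 member in that fit, was not among them. The JOA response of MTF1 in NB4 minus that in Kasumi-1, fitted without pairs, was -0.12 (SE 0.14, limma adjusted p = 0.778). With same-numbered libraries as pairs in both lines, the limma adjusted p of that difference was 0.607. The test without pairs covered 7111 genes and called 0.197%, which is 14 genes, with 838 at an unadjusted p under 0.05. The pseudogene MT1L lay under the level needed for testing in Kasumi-1, at 1.02, 0.287 and 0 FPKM with JOA and 0.673, 1.25 and 0 FPKM in control. The importer SLC39A10 had 10.6, 10.2 and 8.35 FPKM with JOA and 8.02, 8.63 and 7.27 FPKM in control (log2 change 0.25, limma adjusted p = 0.283). With same-numbered libraries as pairs its limma adjusted p was 0.0519. Its difference between the lines, fitted without pairs, was 0.12 (limma adjusted p = 0.819). No level was set across the lines, since each table carries its own normalisation.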

How the data were processed

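Polyadenylated RNA was sequenced from stranded TruSeq libraries, per the labels' protocols. Trimmomatic, HISAT2, Cufflinks, HTSeq and hg38 are listed in the submitters' processing notes, without versions or roles. Although the NB4 table carries FPKM in its name, its deposited columns sum to 999679 to 999758, the mark of TPM, and its 121005 transcripts were read as TPM. Of these, 93.9% matched GENCODE 29 and were summed to 21941 genes. The Kasumi-1 values are FPKM as deposited, and 37.5% of 29053 rows matched a gene symbol. Neither table gives depth, so no counting interval was computed.

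Fits were made per line in limma 3.58.1, under R 4.3.3, with Python 3.11.15 for tables, on log2(value + 1). The prior variance followed the mean level. Tests covered genes at 1 or more in at least 2 (NB4) or 3 (Kasumi-1) libraries, with calls at a Benjamini-Hochberg adjusted p under 0.05. The lines were compared by the interaction of line and agent in 1 fit of 10 libraries. The NB4 fit was tested on simulated data, where 72% of 2-fold and 99% of 4-fold changes were recovered, with 8 false calls among 179. The other fits were not tested in this way. The members and lists were chosen with earlier results of these data known. Besides the 10 members, the rule named in each list the 2 genes with the largest change among those with a higher-group mean of at least 5 TPM, and the 5 genes most like MT2A and MT1X. HMOX1, PCBP2, S100A9, ELANE and the neighbours NUP93 and BBS2 were named after their values were seen. Kasumi-1 libraries that share a number deviated together (correlations of 0.338, 0.509 and 0.422). A fit with the numbers as pairs was therefore given beside the main fit, from the values and not from a label. The main Kasumi-1 fit and the main comparison of the lines had no pairs. Promoters come from RefSeq (GRCh38.p14). Alternatives covered the pseudocount, the filter, the scaling, the transcripts summed, the replicate block, a shared variance and leaving out each library.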

Additional observations from a re-analysis of the deposited data

How the results depend on the processing

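In NB4, 0 of the members passed in limma under 10 of the 11 alternatives, and MT2A, MT1G, MT1F and MT1X kept a negative log2 change in each alternative in which they were fitted. The exception was the replicate block, with 2 members called, MT2A (adjusted p = 0.00847) and MT1G (adjusted p = 0.0112). NB4 has 2 pairs, whose deviations correlated at 0.068, so the numbers were not taken as pairs. The NB4 count over all genes, 1, was 0 with a pseudocount of 0.1, with no filter and with median-ratio scaling, 13 with protein-coding transcripts only, 177 with the replicate block and 154 with variance shared over both lines, where MTF1 was the 1 member fitted. Leaving out a library gave 1 to 6 calls, with 6 without the first JOA library and 2 without the second control library. A lone library is then assumed to vary like the others. The median of the 5 metallothioneins lay between -0.74 and -0.32 when a library was left out and was -0.63 with median-ratio scaling, which moved the median of all genes to -0.0048. Signs turned only for values near 0. SLC30A1 was at -0.0745 with median-ratio scaling, at -0.0369 without mitochondrial genes and between -0.14 and 0.16 over the fits that leave out a library, MT1E between -0.16 and 0.07 over those fits, and MTF1 at 0.0152 with protein-coding transcripts only. In Kasumi-1 the replicate block called 1004 rows, and MTF1 was at -0.0063 with median-ratio scaling. The causes were not tested. TPM keeps no depth, so depth sets no limit that could be given here.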
